A study of Mus musculus with 10 samples.

Results

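The genes described here carry proteins through the endoplasmic reticulum (ER), from folding to export. They are the chaperone genes Hspa5, Hsp90b1 and Calr, the protein disulfide isomerase genes Pdia3, Pdia4 and Pdia6, the stress-responsive Manf and Sdf2l1, the cargo receptor gene Lman1 and the translocon gene Ssr3. Members were chosen by name, with earlier results of these data known. Every probe annotated to one of them on the array was used, which gave 12 probes for 10 genes among 46373 probes in all. Pdia6 and Ssr3 have 2 probes each and the others have 1. Of the 12 probes, 6 stood above background on all 10 arrays and 4 on none. A probe was tested where it stood above background (detection p under 0.01) on at least 2 arrays, which 8 member probes did. They left 7 genes to test among 9352, namely Hsp90b1, Pdia3, Pdia4, Pdia6, Sdf2l1, Lman1 and Ssr3.

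RNA came from brain tissue of C57/Bl6 mice aged 10 weeks, either with a knockout of Cd93 (KO), a glycoprotein gene of endothelial and myeloid cells, or wild type (WT). Some mice underwent middle cerebral artery occlusion, an experimental stroke in which a vessel that supplies one hemisphere is blocked and later reopened. In the 72 h protocol the vessel was blocked for 30 min and reperfused for 72 h, and in the 48 h protocol it was blocked for 60 min and reperfused for 48 h. Each genotype has 1 array for the ipsilateral hemisphere (the side of the occlusion) and 1 for the contralateral hemisphere under each protocol, and 1 for untreated brain. The protocols differ in both occlusion and reperfusion time, whose parts cannot be told apart. No group is replicated, and whether an array holds 1 mouse or a pool is not stated in the labels. For conditions, the p-values below set the mean difference of both genotypes against 1 spread per gene, shared by all 10 arrays. That spread is how far KO minus WT varied over the 5 conditions, drawn towards the spread of other genes. It is thus not the agreement of the genotypes in that 1 comparison. For KO against WT the p-values measure how steady the difference was across the 5 conditions, with the same spread. The labels also leave out the kind of knockout allele and whether the hemispheres of a protocol are from 1 set of mice.

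Secreted and membrane proteins enter the ER through a translocon, where chaperones of the heat shock families hold them while they fold, the lectin chaperones calreticulin and calnexin retain glycoproteins that are not yet folded, and protein disulfide isomerases make and rearrange disulfide bonds. Finished proteins leave for the Golgi apparatus in coated vesicles, some of them bound to cargo receptors. When unfolded proteins accumulate, the sensors IRE1, PERK and ATF6 start the unfolded protein response, in which ATF6 and spliced XBP1 raise transcription of chaperone and export genes while PERK slows translation and favours ATF4. This response has been described in the brain after ischaemia.

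A control element known from ER stress genes occurs in some of the members' promoters. The ER stress response element (ERSE), with letters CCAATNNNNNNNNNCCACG, joins a site for the factor NF-Y to a site that ATF6 can occupy. Promoters of 300 bases (250 before the start and 50 after) from RefSeq, build GRCm38.p6, were at hand for 8 of the 10 genes; Manf and Lman1 had none. Searched on both strands, the element stood in 39 of 32851 mouse promoters (0.119%) and in 4 of the 8 members, Hspa5, Hsp90b1, Calr and Pdia6. Since the element is known from genes of this class, the contrast with all promoters is no independent evidence. Pdia3 and Pdia4 hold it with 1 mismatch in the CCACG part, as 328 promoters do with at most 1 such mismatch (0.998%). Counted from 1 at the first base of CCACG, the mismatch is G5A in Pdia3 and G5T in Pdia4. The stretches below lie upstream of the start, run 5′ to 3′ in the direction of transcription, and are shown because they hold the element or its near match. Capitals mark the CCAAT and CCACG parts of the element, which read CGTGG and ATTGG where it lies on the other strand.
Hspa5: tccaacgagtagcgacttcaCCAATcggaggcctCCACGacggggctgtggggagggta
Hsp90b1: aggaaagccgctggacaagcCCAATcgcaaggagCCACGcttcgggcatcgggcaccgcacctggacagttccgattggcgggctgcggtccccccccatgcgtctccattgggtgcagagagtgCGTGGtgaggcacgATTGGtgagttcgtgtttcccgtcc
Calr: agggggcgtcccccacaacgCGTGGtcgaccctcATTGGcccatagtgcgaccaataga
Pdia6: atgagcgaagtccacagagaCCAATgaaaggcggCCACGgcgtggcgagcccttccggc
Pdia3: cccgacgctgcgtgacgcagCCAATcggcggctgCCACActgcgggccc
Pdia4: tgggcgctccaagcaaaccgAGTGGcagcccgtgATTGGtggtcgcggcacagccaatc

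The Hspa5 stretch is chr2:34772005-34772063 on the plus strand, that of Pdia6 chr12:17266471-17266529 (plus) and that of Pdia3 chr2:121413853-121413901 (plus). Those of Hsp90b1 (chr10:86705513-86705676), Calr (chr8:84847055-84847113) and Pdia4 (chr6:47813582-47813640) are on the minus strand. Hsp90b1 holds the element in both orientations. No member promoter held the related ERSE-II, in which ATTGG and CCACG stand 1 base apart (0.0365% of promoters). Hspa5 held the core TGACGTG of the element that XBP1 binds, as 2.01% of promoters do. The CCAAT box, which is part of ERSE, occurred in all 8 member promoters, against 37.4% of all promoters. Sdf2l1 and Ssr3 held CCAAT and neither ERSE nor TGACGTG in this window. A match of letters is no proof that a factor binds there.

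Between 12811 and 16310 probes stood above background per array. Cd93 had log2 intensities of 6.23 (KO) and 7.81 (WT) in ipsilateral tissue of the 72 h protocol, and of 6.21 (KO) and 8.64 (WT) in that of the 48 h protocol. In the other KO tissue it was not above background (5.10 to 5.38), against 6.16 to 6.90 in WT. The tissue expressed brain genes on all arrays, with 9 of 9 tested neuron markers and 6 of 6 tested astrocyte markers above background. Ipsilateral tissue differed in its markers, and all of these move with the hemisphere comparisons below. The summed linear intensity of 5 tested microglia and macrophage markers was 3710 to 4297 in ipsilateral 72 h tissue, against 577 to 700 in contralateral 72 h tissue. Under the 48 h protocol it was 2026 to 2372 in ipsilateral tissue, against 558 to 739 in contralateral tissue. All 5 were higher under both protocols, while Itgam, Csf1r and Cd68 were not among the genes tested. Endothelial markers summed to 4048 to 7460 in ipsilateral 72 h tissue, against 2306 to 2544 in contralateral 72 h tissue (5 of 6 higher), and to 5001 to 5329 in ipsilateral 48 h tissue, against 2711 to 2976 in contralateral 48 h tissue (4 of 6 higher). Striatal neuron markers were lower in 5 of 5 cases under the 72 h protocol and in 4 of 5 under the 48 h protocol. Of 9 neuron markers, 1 (72 h) and 2 (48 h) were lower and 0 higher. Under both protocols 3 of 6 astrocyte markers and 4 of 4 markers of dividing cells were higher. At most 1 of the 4 dividing-cell markers was above background on any contralateral array. None of the 6 plasma and B cell markers with a probe passed the detection filter. In whole tissue, fewer cells of a type and less RNA per cell cannot be told apart, and the part of these markers in the results was not tested.

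Hspa5, Calr and Manf gave no readable level. Hspa5 encodes the main Hsp70 chaperone of the ER lumen, and its only probe (ILMN_1255561, chromosome 2) stood above background on none of the 10 arrays, with a lowest detection p of 0.0137 and raw intensities of 51.0 to 75.7. Its normalized log2 values were 4.74 (KO) and 5.27 (WT) in ipsilateral and 4.85 (KO) and 5.0 (WT) in contralateral tissue of the 72 h protocol. Under the 48 h protocol they were 5.13 (KO) and 5.28 (WT) in ipsilateral tissue, and 4.76 in contralateral tissue of either genotype. Untreated brain had 4.83 (KO) and 4.94 (WT). Calr, which encodes calreticulin, had a probe (ILMN_2701071, chromosome 8) with a lowest detection p of 0.240 and log2 values of 4.57 to 4.68. Manf, a secreted ER stress protein with neurotrophic activity, had a probe (ILMN_2597229, chromosome 9) with a lowest detection p of 0.166 and values of 4.52 to 4.75. Neither probe stood above background on any array, so no level or change of these transcripts can be read here, and the 3 genes were left out of the main tests.

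The first comparison asked how the members differ between the hemispheres after the occlusion. Under the 72 h protocol 1 of the 7 tested genes, Sdf2l1, was higher in ipsilateral tissue and none was lower, where 10.3% of all genes were higher and 4.16% lower (14.5% called). Under the 48 h protocol 6 of the 7 were higher and none was lower, where 12.7% of all genes were higher and 8.06% lower (20.7% called). The members' median log2 difference was 0.30 under the 72 h protocol, against -0.05 over all genes, and 0.54 under the 48 h protocol, against -0.02 over all genes. These counts and medians describe the members that passed the detection filter, 1 of which, Ssr3, passed it through 3 arrays, among them both ipsilateral 48 h arrays where it is high. Without Ssr3 the 48 h count is 5 of 6. Setting Ssr3 at the bound given below leaves the 48 h median as it is. Since the members were chosen with earlier results of these data known, the contrast with all genes is no independent evidence. The members were not tested as a set.

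Hsp90b1, the Hsp90 chaperone of the ER (probe ILMN_2504433, chromosome 10, above background on all arrays), had log2 intensities of 9.27 (KO) and 9.67 (WT) in ipsilateral 72 h tissue, against 8.92 (KO) and 9.41 (WT) in contralateral 72 h tissue. In the 48 h protocol it had 9.67 (KO) and 9.75 (WT) in ipsilateral tissue, against 8.99 (KO) and 9.26 (WT) in contralateral tissue. Untreated brain had 9.02 (KO) and 9.19 (WT). The groups overlapped under the 72 h protocol and were apart under the 48 h protocol, with both ipsilateral arrays above both contralateral arrays. Ipsilateral arrays lay apart and higher in 2 of 7 members and 22% of all genes (72 h), and in 5 members and 30.3% (48 h). They lay apart and lower in 1 member and 29.6% of all genes (72 h), and in 0 members and 33.7% (48 h). The 5 include Ssr3, which passed the detection filter through arrays that include both ipsilateral 48 h ones, and Pdia6 by 1 of its 2 probes. The 1 lower member is Ssr3, below background on both ipsilateral 72 h arrays. The 72 h difference of Hsp90b1, 0.30 ± 0.13 (SE of the limma model, as throughout), did not pass (limma adjusted p = 0.149). The 48 h rise of 0.58 ± 0.13, or 1.5-fold, did (adjusted p = 0.0118).

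**Figure D1:**
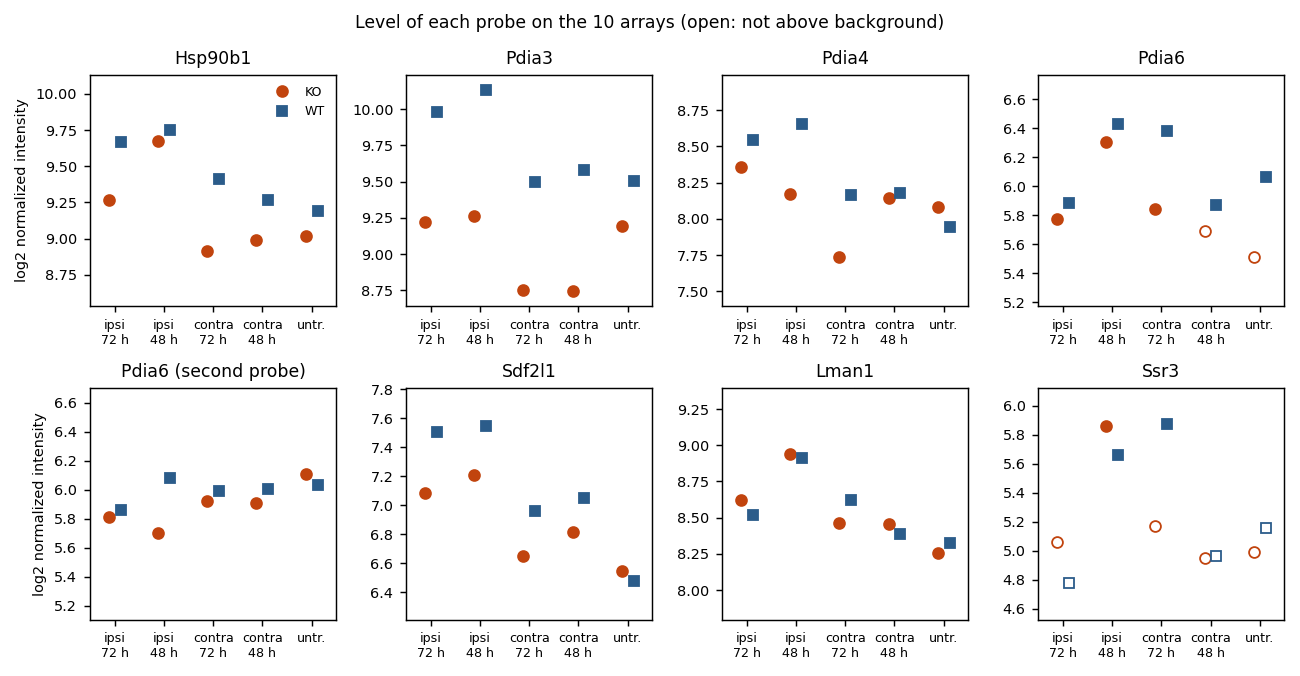
Log2 normalized intensity (y axis, a scale of its own in each panel) of the 8 tested probes on the 10 arrays, by condition (x axis; untr. stands for untreated). Each point is 1 array, KO circles left of WT squares, and open points are not above background. Pdia3 is lower in KO than in WT in all 5 conditions, and the Pdia6 probes show different patterns.

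The isomerases did not move as one. Pdia3, which encodes the isomerase that works with calreticulin and calnexin on glycoproteins (ILMN_2736875, chromosome 2, all arrays), had 9.22 (KO) and 9.98 (WT) in ipsilateral 72 h tissue, against 8.75 (KO) and 9.50 (WT) in contralateral 72 h tissue. It had 9.27 (KO) and 10.13 (WT) in ipsilateral 48 h tissue, against 8.75 (KO) and 9.58 (WT) in contralateral 48 h tissue, and 9.19 (KO) and 9.50 (WT) in untreated brain. Ipsilateral and contralateral values overlapped across genotypes under either protocol, as KO values were low throughout, but within each genotype the ipsilateral array was the higher. The differences were 0.47 in KO and 0.48 in WT under the 72 h protocol (together 0.48 ± 0.14), just short of the threshold (adjusted p = 0.0511). Under the 48 h protocol they were 0.52 in KO and 0.55 in WT (together 0.54 ± 0.14, adjusted p = 0.0276).

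Pdia4, an isomerase with several thioredoxin-like domains (ILMN_1249670, chromosome 6, all arrays), had 8.36 (KO) and 8.55 (WT) in ipsilateral 72 h tissue, against 7.73 (KO) and 8.16 (WT) in contralateral 72 h tissue. It had 8.17 (KO) and 8.66 (WT) in ipsilateral 48 h tissue, against 8.14 (KO) and 8.18 (WT) in contralateral 48 h tissue, and 8.08 (KO) and 7.94 (WT) in untreated brain. Under the 72 h protocol the groups were apart, and the difference of 0.50 ± 0.16 was the highest of the 7 members but did not pass (adjusted p = 0.0582). Pdia4 was also the 1 tested member not called under the 48 h protocol, where the difference was 0.02 in KO and 0.48 in WT (together 0.25 ± 0.16, adjusted p = 0.275).

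Pdia6, an isomerase described as a partner of Hspa5 and a regulator of the stress sensors (chromosome 12), was read by 2 probes that disagree. The probe with the higher mean (ILMN_2489360) stood above background on 8 of 10 arrays and not on KO contralateral 48 h and KO untreated. In the 72 h protocol it had 5.77 (KO) and 5.89 (WT) in ipsilateral tissue, against 5.84 (KO) and 6.38 (WT) in contralateral tissue, a difference of -0.28 ± 0.14 (adjusted p = 0.222). It had 6.30 (KO) and 6.43 (WT) in ipsilateral 48 h tissue, against 5.69 (KO) and 5.87 (WT) in contralateral 48 h tissue, and rose by 0.58 ± 0.14 (adjusted p = 0.0201). Untreated brain had 5.52 (KO) and 6.07 (WT). Its ipsilateral and contralateral arrays overlapped under the 72 h protocol and were apart under the 48 h protocol. The other probe (ILMN_1235060), above background on all arrays, had 5.81 (KO) and 5.86 (WT) in ipsilateral 72 h tissue, against 5.92 (KO) and 5.99 (WT) in contralateral 72 h tissue. Its 48 h values were 5.70 (KO) and 6.08 (WT) in ipsilateral tissue, against 5.91 (KO) and 6.0 (WT) in contralateral tissue, a difference of -0.06 ± 0.13 in the fit of every probe (adjusted p = 0.769). It had 6.11 (KO) and 6.03 (WT) in untreated brain. The Pdia6 call therefore rests on 1 of 2 probes.

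Sdf2l1, which encodes a lumenal protein that works with ER Hsp40 and Hsp70 chaperones (ILMN_1221943, chromosome 16, all arrays), was the member called under both protocols. It had 7.08 (KO) and 7.50 (WT) in ipsilateral 72 h tissue, against 6.65 (KO) and 6.96 (WT) in contralateral 72 h tissue, and rose by 0.49 ± 0.13 (adjusted p = 0.0355). Under the 48 h protocol it had 7.21 (KO) and 7.55 (WT) in ipsilateral tissue, against 6.82 (KO) and 7.05 (WT) in contralateral tissue, a rise of 0.44 ± 0.13 (adjusted p = 0.0417). Untreated brain had the lowest values, 6.55 (KO) and 6.47 (WT). The ipsilateral arrays lay above the contralateral ones in each protocol, and all contralateral arrays above both untreated ones.

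Lman1, the receptor that carries glycoproteins such as blood coagulation factors from the ER towards the Golgi (ILMN_1212637, chromosome 18, all arrays), was higher in ipsilateral tissue under the 48 h protocol. In the 72 h protocol it had 8.62 (KO) and 8.52 (WT) in ipsilateral tissue, against 8.47 (KO) and 8.62 (WT) in contralateral tissue. That difference was 0.16 in KO and -0.10 in WT (together 0.03 ± 0.11, adjusted p = 0.886), and the groups overlapped. It had 8.94 (KO) and 8.91 (WT) in ipsilateral 48 h tissue, against 8.46 (KO) and 8.39 (WT) in contralateral 48 h tissue, where the groups were apart and the rise was 0.50 ± 0.11 (adjusted p = 0.0137). Untreated brain had 8.26 (KO) and 8.33 (WT).

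Ssr3, the gamma subunit of the translocon-associated complex (ILMN_1230569, chromosome 3), lay near background and stood above it on 3 arrays. Ipsilateral 72 h tissue had 5.06 (KO) and 4.78 (WT), both below background, against 5.17 (KO, below background) and 5.87 (WT, above it) in contralateral 72 h tissue. With 1 of 2 contralateral and neither ipsilateral array above background, the 72 h difference, lower in ipsilateral tissue, has no readable size and did not pass (adjusted p = 0.0789). The other arrays above background were both ipsilateral 48 h arrays, with 5.86 (KO) and 5.66 (WT), against 4.95 (KO) and 4.96 (WT), below background, in contralateral 48 h tissue. The 48 h change is thus a bound on the means, at least 1.60-fold higher in ipsilateral tissue (adjusted p = 0.0225). A bound takes, on each array below background, the higher of the lowest detected signal and the value of the probe itself. Untreated brain had 4.99 (KO) and 5.16 (WT), below background. A second probe (ILMN_1234503) was below background on all 10 arrays, with values of 4.64 to 4.86.

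**Figure D2:**
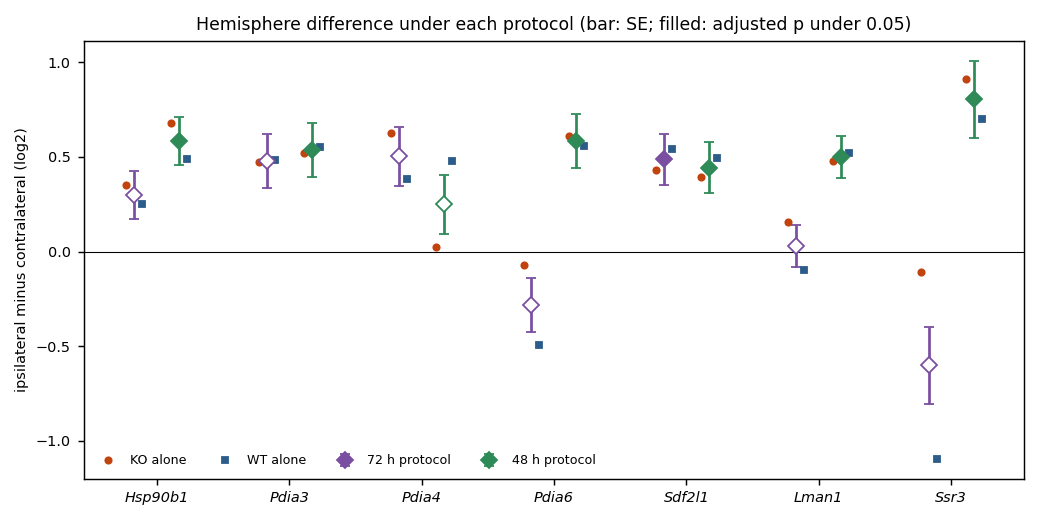
Ipsilateral minus contralateral log2 intensity (y axis) of the 7 tested genes (x axis), with the 72 h protocol left of the 48 h protocol. Diamonds are the fitted difference with its SE and are filled where the adjusted p is under 0.05, and small circles and squares are the differences within KO and within WT. Filled diamonds number 1, Sdf2l1, under the 72 h protocol and 6 under the 48 h protocol. The Ssr3 points are fitted values that rest on arrays below background, with no readable size under the 72 h and a bound of at least 1.60-fold higher under the 48 h protocol.

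The calls depended on single arrays of these unreplicated groups. The 72 h call of Sdf2l1 was lost without either ipsilateral array of either protocol or either contralateral 72 h array (adjusted p from 0.0578 to 0.205). Without either untreated array, Pdia3 (adjusted p = 0.0163) and Pdia4 (adjusted p = 0.0383) were called as well under the 72 h protocol, and without the KO contralateral 72 h array Ssr3 was called there as lower (adjusted p = 0.00695), with no array above background in the ipsilateral 72 h tissue. Of the 6 calls of the 48 h protocol, none was left without the KO ipsilateral 48 h array, 2 without the WT ipsilateral 48 h array, 1 without the KO contralateral 48 h array and none without the WT contralateral 48 h array. The 48 h call of Sdf2l1 was also lost without either contralateral 72 h array (adjusted p = 0.0506). Each of the 7 genes kept a positive 48 h difference when any 1 array was left out. Over all genes, leaving out 1 array gave 584 (without KO ipsilateral 72 h) to 1377 calls in place of 1352 under the 72 h protocol, and 598 (without KO ipsilateral 48 h) to 2043 in place of 1938 under the 48 h protocol. Scaling bears on these values too. When arrays were centred on their medians in place of quantile normalization, the median of all genes was 0.07 under the 72 h protocol, in place of -0.05, and 0.43 under the 48 h protocol, in place of -0.02. Higher genes then made up 94.1% of the 72 h calls, in place of 71.2%, and 99.1% of the 48 h calls, in place of 61.1%. Relative to the median of all genes, the members' median was 0.36 under the 72 h protocol with either scaling, and 0.57 under the 48 h protocol with centring, in place of 0.56. Pdia3, Pdia4 and Sdf2l1 were called higher under the 72 h protocol with centring, where 12.7% of all genes were called. All 7 were called higher under the 48 h protocol with centring, where 52.7% of all genes were called.

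The next comparison set the protocols against each other. In ipsilateral tissue 6 of 7 members had lower values under the 72 h than under the 48 h protocol, but none passed (limma), where 3.37% of all genes passed and 1.5% were lower. At an unadjusted p under 0.05 there were 3 members and 2030 of 9352 genes. The largest differences, 72 h minus 48 h, were in Ssr3 (at least 1.69-fold lower, adjusted p = 0.0542), Pdia6 (-0.54 ± 0.14, adjusted p = 0.0686) and Lman1 (-0.35 ± 0.11, adjusted p = 0.113). Hsp90b1 was at -0.25 ± 0.13 (adjusted p = 0.292). Without either contralateral 72 h array, Ssr3 passed (adjusted p = 0.0225). In each of these 4 genes both 72 h arrays lay below both 48 h arrays, as they did in 24.3% of all genes. Of these genes, Ssr3 was below background on both 72 h arrays and passed the filter through arrays that include both 48 h ones. The other Pdia6 probe, above background on all arrays, had -0.06 ± 0.13 (adjusted p = 0.841 in the fit of every probe), and its arrays overlapped. Pdia3 (-0.10), Sdf2l1 (-0.08) and Pdia4 (0.04) differed by less than their SE of 0.13 to 0.16. Under median centring the median of all genes was at -0.26, against 0.01 with quantile normalization, and Hsp90b1, Pdia6, Lman1 and Ssr3 were called lower while Pdia4 turned to -0.27. With that scaling 18.4% of all genes were called, in place of 3.37%. Microglia and macrophage markers went the other way in the same tissue, with 4 of 5 higher under the 72 h protocol, as were 3 of 4 markers of dividing cells. Whether these markers play a part in the difference was not tested.

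Contralateral tissue showed no protocol call among the members or among all 9352 genes (0 called in limma, with 2 members and 979 genes at an unadjusted p under 0.05). The differences of 6 members, 72 h minus 48 h, ran from -0.21 in Pdia4 to 0.33 in Pdia6. Ssr3, above background on 1 of the 4 arrays, was higher in fitted values, with no readable size (adjusted p = 0.392).

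Whether the hemisphere difference itself depends on the protocol was tested as a difference of differences, 72 h minus 48 h. None of the 7 passed, where 1 gene of 9352 did (0.0107%); 3 members and 1022 genes had an unadjusted p under 0.05. Ssr3, below background on 5 of the 8 arrays, has no readable size here (adjusted p = 0.173). Pdia6 had -0.87 (95% interval -1.32 to -0.41, adjusted p = 0.204) and Lman1 -0.47 (-0.82 to -0.12, adjusted p = 0.321). The 4 others had intervals that include 0, namely Hsp90b1 (-0.68 to 0.12), Pdia3 (-0.51 to 0.39), Sdf2l1 (-0.38 to 0.46) and Pdia4 (-0.24 to 0.75). The other Pdia6 probe, above background on all arrays, had -0.06 ± 0.19 (adjusted p = 0.955 in the fit of every probe). The unequal counts of calls, 1 at 72 h and 6 at 48 h, are thus not matched by a call of this test. Without the KO contralateral 72 h array Ssr3 passed (adjusted p = 0.0407). With the values the authors normalized in pairs and a block for each pair of arrays, Ssr3 (adjusted p = 0.0277) and Pdia6 (-0.61, adjusted p = 0.0448) passed. In that fit 185 of 9352 genes were called (1.98%), in place of 1. A block for each genotype and protocol on the main values called none of the 7 and 1 gene of 9352.

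Contralateral tissue was set against untreated brain to ask whether the members change outside the occluded side. No member passed under the 72 h protocol, where 1.41% of all genes did, or under the 48 h protocol, where 0.364% did. An unadjusted p under 0.05 (limma) was reached by 3 members and 1745 of 9352 genes under the 72 h protocol. Under the 48 h protocol 1 member and 995 genes reached it. The Sdf2l1 difference was 0.30 ± 0.13 after 72 h (adjusted p = 0.268) and 0.42 ± 0.13 after 48 h (adjusted p = 0.265). For Lman1 the values were 0.25 ± 0.11 (adjusted p = 0.265) and 0.13 ± 0.11 (adjusted p = 0.738). Both protocols share the untreated arrays, so their differences are not independent.

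The last comparison asked whether the knockout of Cd93 alters the members. It took the 5 arrays of a genotype, 1 per condition, as its replicates, though both hemispheres of a protocol could be from the same mice. Pdia3 was lower in KO brain than in WT brain, by -0.70 ± 0.09 (adjusted p = 0.00425), or 1.63-fold. It was the 1 member of 7 called, as lower, where 1.2% of all genes were called (0.556% higher and 0.642% lower). KO minus WT was -0.76 and -0.87 in ipsilateral tissue of the 72 h and 48 h protocols, -0.75 and -0.83 in contralateral tissue, and -0.31 in untreated brain. The KO array was thus lower in all 5 conditions, and the call held in 17 of 17 alternatives, including each left-out array (-0.80 to -0.66, highest adjusted p = 0.0316). Pdia3 lies on chromosome 2, as does Cd93, and whether their position bears on the difference was not tested.

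No other member passed, and KO minus WT was negative in 5 that gave a size. They were -0.30 ± 0.09 in Pdia6 (adjusted p = 0.145), -0.28 ± 0.08 in Hsp90b1 (adjusted p = 0.134), -0.25 ± 0.08 in Sdf2l1 (adjusted p = 0.178), -0.20 ± 0.10 in Pdia4 (adjusted p = 0.323) and -0.01 ± 0.07 in Lman1 (adjusted p = 0.974). The other Pdia6 probe had -0.10 ± 0.08 (adjusted p = 0.559 in the fit of every probe). Ssr3 (adjusted p = 0.790) was above background on too few arrays to give a size. Hsp90b1 and the brighter Pdia6 probe were lower in KO in 5 of 5 conditions, and Sdf2l1 and Pdia4 in 4 of 5, with untreated brain as the exception. A test of whether KO and WT differ more in ipsilateral than in other tissue called no member and no gene (0 of 9352 in limma; 1 member and 361 genes at an unadjusted p under 0.05). No marker of the 11 cell type lists passed between the genotypes.

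**Figure D3:**
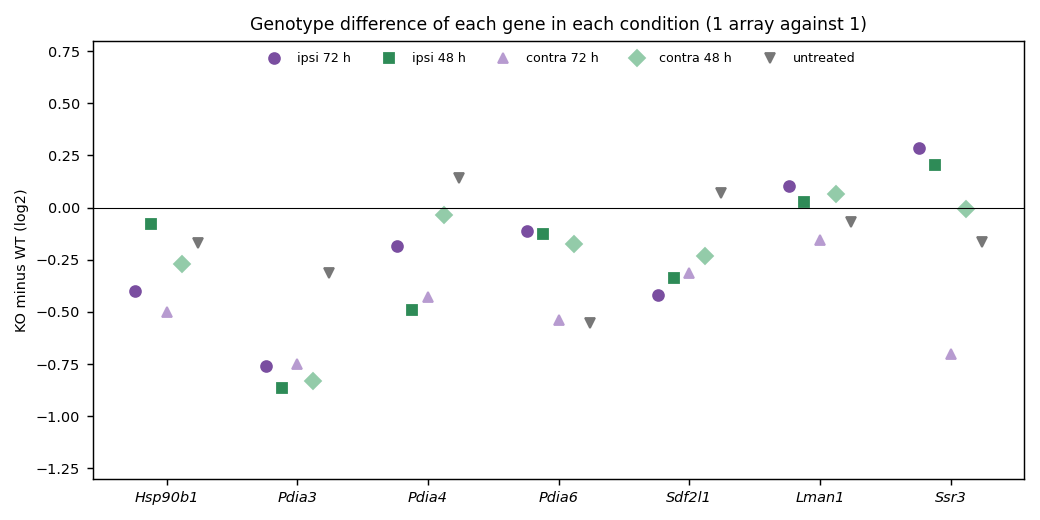
KO minus WT log2 intensity (y axis) of the 7 tested genes (x axis) in each of the 5 conditions, 1 array against 1 array per point, so no error can be drawn. All 5 Pdia3 points lie between -0.87 and -0.31, while those of Lman1 lie on both sides of 0; Ssr3 points rest mostly on arrays below background.

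Other genes of the pathway were read from 8 lists of 183 genes, of which 134 passed the detection filter. Under the 72 h protocol 19 were higher and 1 lower in ipsilateral tissue, with a median of 0.06. Both directions together made 14.9%, near the 14.5% of all genes. Higher ones alone made 14.2%, against 10.3% of all genes, where 4.16% were lower. In the 48 h protocol 27 were higher and 4 lower, with a median of 0.16. Both directions together made 23.1%, near the 20.7% of all genes. Higher ones alone made 20.1%, against 12.7% of all genes, where 8.06% were lower. The lists too were chosen with earlier results of these data known, so the contrast is no independent evidence. Under median centring 20 were higher under the 72 h protocol (median 0.17) and 95 under the 48 h protocol (median 0.58), and none was lower. With that scaling 12.7% (72 h) and 52.7% (48 h) of all genes were called. Relative to the median of all genes, the centred medians of the 134 were 0.10 and 0.15. Of the 4 lower ones, Creld1, Gfpt1 and Sec31a kept their sign without a call under median centring, and Sec23a (-0.40, named after its value was seen) turned to 0.09. Without 1 array the 19 became 5 (KO ipsilateral 72 h), 8 (WT ipsilateral 72 h), 7 (KO contralateral 72 h) or 12 (WT contralateral 72 h or either ipsilateral 48 h array). Without 1 array of the 48 h protocol the 27 became 4 (KO ipsilateral), 9 (WT ipsilateral), 8 (KO contralateral) or 6 (WT contralateral).

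The sensors and transcription factors of the unfolded protein response had no call in 7 tested of 13 listed, with a median of 0.00 under the 72 h and -0.02 under the 48 h protocol. Under median centring 4 of the 7 were called higher under the 48 h protocol (median 0.46, and 0.03 relative to all genes), where 52.7% of all genes were called. Xbp1, whose spliced form drives chaperone and export genes, had 0.29 (adjusted p = 0.218) under the 72 h and 0.19 (adjusted p = 0.385) under the 48 h protocol. The values stand for the transcript and not for its splicing. Atf4, which acts downstream of PERK, had -0.25 under the 72 h and 0.37 (adjusted p = 0.0695) under the 48 h protocol, and the pro-apoptotic factor gene Ddit3 had 0.03 and -0.18. Of 13 tested genes known as ATF4 targets, 3 were higher under the 72 h protocol (median 0.12) and 4 under the 48 h protocol (median 0.24), and none was lower. They included the translation inhibitor gene Eif4ebp1 (1.5 under the 72 h and 1.44 under the 48 h protocol) and the stress gene Nupr1 (0.98 and 1.04). The serine synthesis gene Psat1 (0.52) was higher under the 72 h protocol, and the cystine transporter gene Slc7a11 (0.74) and the mitochondrial folate gene Mthfd2 (0.47) under the 48 h protocol.

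Among other chaperones and folding helpers, 3 of 16 tested were higher under the 72 h protocol (median 0.08), and 5 were higher and 1 lower under the 48 h protocol (median 0.10). The collagen chaperone gene Serpinh1 had the largest change, at 1.34 under the 72 h and 1.41 under the 48 h protocol. The prolyl isomerase genes Ppib (0.51) and Fkbp9 (0.45) followed under the 72 h protocol, and Creld2 (0.59) and Fkbp11 (0.59) under the 48 h protocol, where Creld1 was lower (-0.52). Fibroblast and pericyte markers moved the same way as Serpinh1, with a sum of 2104 to 3122 in ipsilateral 72 h tissue, against 1116 to 1294 in contralateral 72 h tissue (5 of 6 higher), and of 2560 to 2600 in ipsilateral 48 h tissue, against 1117 to 1372 in contralateral 48 h tissue (3 of 6 higher). Their part in the change was not tested. Of 13 other disulfide enzymes 2 were higher under each protocol (median 0.22 under the 72 h and 0.16 under the 48 h protocol), the isomerase gene P4hb (0.58 under the 72 h and 0.69 under the 48 h protocol) and the peroxiredoxin gene Prdx4 (0.61 and 0.38).

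In the translocation list, the class of Ssr3, 1 of 20 was higher under the 72 h protocol (median 0.11) and 5 under the 48 h protocol (median 0.26). The translocating chain protein gene Tram1 was higher under both (0.44 under the 72 h and 0.49 under the 48 h protocol). The channel genes Sec61g (0.71) and Sec61a1 (0.48) and the signal peptidase gene Sec11c (0.68) were higher under the 48 h protocol. So was Ssr4, named after its value was seen as another subunit of the complex of Ssr3, with 0.42 (adjusted p = 0.0511) under the 72 h and 0.45 (adjusted p = 0.0327) under the 48 h protocol. Of 16 genes of ER-associated degradation, which returns misfolded proteins to the cytosol, 3 were higher under the 72 h protocol (median 0.01) and 4 under the 48 h protocol (median 0.13). The mannosidase family genes Edem1 and Edem2 (0.54) were higher under the 72 h protocol, and Derl2, of the derlin family that acts in the export of misfolded proteins, under both (0.55 and 0.69). Edem1 was above background on 2 arrays, both ipsilateral, and so passed the filter through the tissue where it is high. With 1 of these arrays under each protocol, the size of its change cannot be read. Faf2 (0.76), Erlec1 (0.47) and Selenos (0.44) were higher under the 48 h protocol. Faf2 (-0.75, adjusted p = 0.0310) and Erlec1 (-0.53, adjusted p = 0.0316) were also the 2 genes of the 134 that were lower in ipsilateral tissue under the 72 h than under the 48 h protocol. With any 1 of the 4 ipsilateral arrays left out, none of the 134 passed in this comparison, and without either untreated array 3 were lower and 1 was higher. Under median centring 25 of the 134 were lower, where 18.4% of all genes were called and 4.94% of those calls were higher. The median of the 134 was then -0.01 relative to that of all genes.

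Of 18 genes for N-glycosylation and glycan trimming, 3 were higher and 1 lower under either protocol (median 0.10 under the 72 h and 0.26 under the 48 h protocol). Under the 72 h protocol these were Alg8 (0.54), Dpagt1 (0.44), Ddost (0.41) and, as lower, Uggt2 (-0.47). Those of the 48 h protocol were the folding sensor gene Uggt1 (0.57), Krtcap2 (0.50), Ddost (0.38) and, as lower, Gfpt1. Gfpt1 was above background on 2 arrays, 1 of each hemisphere under the 48 h protocol, so the size of its change cannot be read. Of 31 genes for transport between ER and Golgi, the class of Lman1, 4 were higher under the 72 h protocol (median 0.01), and 4 were higher and 2 lower under the 48 h protocol (median 0.07). The retrieval receptor gene Kdelr3 was at least 1.63-fold higher under the 72 h and at least 1.65-fold higher under the 48 h protocol. It too passed the filter through the tissue where it is high, being above background on the 4 ipsilateral arrays and no other. Its relative Kdelr2 (0.66), Tmed3 (0.57) and the coat gene Sec13 (0.37) were higher under the 72 h protocol, and Tmed2 (0.63) and Tmed3 (0.45) under the 48 h protocol, where the coat gene Sec31a was lower (-0.61). Under median centring Uggt2 (-0.31, adjusted p = 0.366) and Sec13 (0.45, adjusted p = 0.0728) lost their calls, the latter with a larger difference. Between genotypes 2 of the 134 passed, both higher in KO, Edem2 (0.46 ± 0.07, adjusted p = 0.00925) and Alg5 (0.35 ± 0.07, adjusted p = 0.0464).

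**Figure D4:**
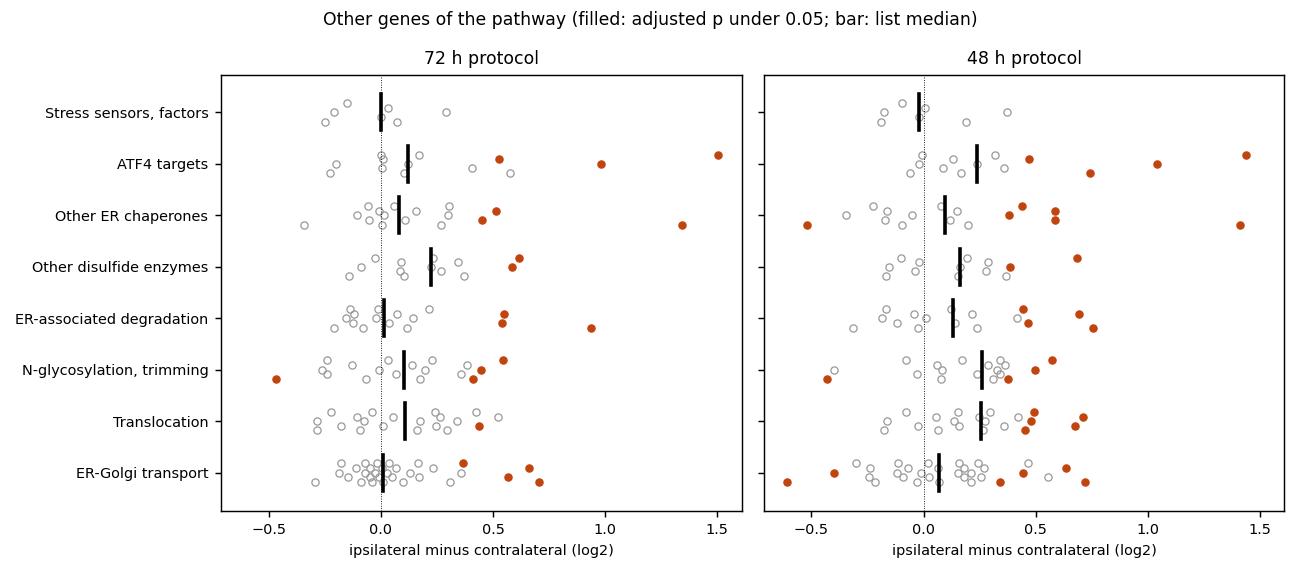
Ipsilateral minus contralateral log2 intensity (x axis) of the 134 tested pathway genes in 8 lists (rows), with the 72 h protocol on the left and the 48 h protocol on the right. Each circle is 1 gene, filled where the adjusted p is under 0.05, and the bar is the list's median; list medians lie between -0.02 and 0.26.

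The genes whose levels followed the members most closely were found by Pearson correlation, across the 10 arrays, with the mean standardized level of the 7 tested members. They were Poglut2 (r = 0.96), Etfdh (0.95), Tmed2 (0.94), Hmgn5 (0.94), Sulf1 (0.94), Lrrc8c (0.93), Ss18 (0.93) and Zfp367 (0.92). Poglut2 encodes an ER-resident glycosyltransferase and Tmed2 a cargo adaptor of ER to Golgi vesicles. The correlations describe 10 arrays that share conditions and scaling, and were the 8 highest of all tested genes. Each member weighed the same in the mean, also Ssr3, above background on 3 arrays, and Pdia6, whose 2 probes disagree. Poglut2 had 7.48 (KO) and 7.83 (WT) in ipsilateral 72 h tissue, against 7.32 (KO) and 7.68 (WT) in contralateral 72 h tissue. In the 48 h protocol it had 7.72 (KO) and 7.95 (WT) in ipsilateral tissue, against 7.40 (KO) and 7.55 (WT) in contralateral tissue. Lrrc8c was above background only on both ipsilateral 48 h arrays.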

How the data were processed

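RNA of 10 mouse brain samples, extracted with Trizol, was hybridised to Illumina Mouse-6 arrays by the authors, 1 array per group. The deposited table holds raw, linear intensity of each probe and array, per the file headers. The deposited detection p-value beside each intensity runs as 1 minus p and was turned round. The authors' value table holds intensity that was quantile-normalized in pairs of arrays, as its values show, and served only as an alternative within pairs. The software that made these files is not given in the sources used here.

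Intensities were background-corrected (nec in limma 3.58.1, R 4.3.3, offset 16, with the negative controls estimated through the detection values), quantile-normalized and log2-transformed. Of 46373 probes, 16067 were kept (detection p under 0.01 on at least 2 arrays), and the probe with the highest mean stood for a gene. Of all probes 29800 name 1 gene, 10 several and 16563 none, and 29746 were matched to RefSeq for names and chromosomes. No coordinates of probes are given, since the files name no genome build. One additive limma model of 5 conditions and genotype was fitted to 9352 genes with 4 residual degrees of freedom. A genotype-by-ipsilateral term was added in another fit, which left 3. P-values were adjusted by Benjamini-Hochberg over all genes, threshold 0.05. The fit was tested on simulated data.

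Members and lists were chosen with earlier results of these data known. All members are named, up to 4 called genes of each list and comparison, and the 8 genes of highest correlation. The marker lists were neurons, striatal neurons, astrocytes, oligodendrocytes, microglia and macrophages, neutrophils, endothelium, fibroblasts and pericytes, plasma and B cells, choroid plexus and dividing cells. Alternatives changed the background correction, scaling, filter, probe rule, variance model, blocks and arrays. Only the number of arrays, and not a read depth, limits the precision.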

Additional observations from a re-analysis of the deposited data

How the results depend on the processing

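Brackets in the member counts that follow give the share of all genes called. The 1 of 7 members called in the 72 h hemisphere comparison (14.5%) became 3 of 7 without background correction (15.8%), under median centring (12.7%) and with a variance trend and robust prior (16.2%). It was also 3 of 7 with only the 8 arrays of mice with occlusion (14.7%) and with a block for each genotype and protocol (21.4%), chosen after seeing the data. With detection on all 10 arrays, where Ssr3 was not tested, it was 3 of 6 (13.3%). It became 2 of 7 with the mean of a gene's probes (14.6%). With the authors' value table and a block for each pair of arrays together it became 5 of 7, 4 higher and 1 lower (24.8%). It became 0 of 7 with no genotype block (10.8%), and 0 of 10 with no detection filter (7.01%), where Hspa5, Calr and Manf were tested too. The 6 of 7 members of the 48 h comparison (20.7%) became 3 of 10 with no detection filter (9.81%) and 2 of 7 with no genotype block (14.2%). They became 4 of 6 with detection on all 10 arrays (21%). With the mean of a gene's probes they became 5 of 7 (20.6%), where Pdia6 fell to 0.26 (limma adjusted p = 0.109). The 0 of 7 members of the ipsilateral protocol comparison (3.37%) became 1 without background correction (5.57%) or with a variance trend (5.93%), and 4 under median centring (18.4%). The 0 of the difference of differences (0.0107% of all genes) became 2 with the authors' table and its block together (1.98%). It stayed 0 with the block for each genotype and protocol (0.0107%). Leaving out 1 array gave 0 to 3 members for the 72 h comparison, 0 to 6 for the 48 h comparison, 0 to 1 for the ipsilateral protocol comparison and 0 to 1 for the difference of differences, where Ssr3 passed without the KO contralateral 72 h array. It left the 1 member between genotypes and the 0 of the remaining comparisons as they were. Pdia6 reversed in the 48 h comparison, to -0.064 (adjusted p = 0.738), with detection on all 10 arrays, where its other probe stands for the gene. Over the 7 genes and 9 comparisons, 1024 single values kept their side, 34 gained a call, 39 lost one and 41 uncalled ones moved or changed sign. Calls across all genes moved by over 1.5 times in several comparisons. The 1352 genes of the 72 h comparison became 2316 with the authors' table and its block together and 2005 with the block for each genotype and protocol on the main values. The 1938 of the 48 h comparison became 3332 and 2883 in these fits, and 4925 under median centring. The 315 of the ipsilateral protocol comparison became 1719 under median centring, 521 without background correction, 555 with a variance trend, 153 with no detection filter and 71 with no genotype block. The 112 between genotypes became 187 without background correction, 223 with a variance trend and 69 with no detection filter. The 132 and 34 genes of the 72 h and 48 h contralateral comparisons with untreated brain became 305 and 78 with a variance trend, and 3 and 1 with no detection filter. Leaving out 1 array gave 584 to 1377 and 598 to 2043 genes for the 72 h and 48 h comparisons, 1 to 327 for the ipsilateral protocol comparison, 44 to 136 between genotypes, and 4 to 109 and 3 to 53 for the contralateral comparisons with untreated brain. Apart from that probe change, the cause was not tested. The authors' table was not run between pairs. No paired analysis by replicate number was possible because the labels carry none and each group is 1 array; the blocks named here join arrays of 1 genotype and protocol. Signal near background limits Ssr3 and the dimmer Pdia6 arrays, and leaves Hspa5, Calr and Manf unmeasured.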
